A study of Mus musculus with 32 samples.

Results

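Expression of the enzymes that make and inactivate prostaglandins was followed in back skin and ear of sham and HDM mice. The set was given as 6 genes, namely Ptgs1, Ptgs2, Ptges, Ptgds, Hpgds and Hpgd, and each gene was taken as the row that the platform annotation maps to its symbol, with the highest mean over the 32 arrays where several rows do so. Of these 6 genes 5 had a row, 1 each, among 22206 rows tested for 19505 named genes. Ptgs1, the constitutive cyclooxygenase gene, was not analysed here. All mice were NC/Nga, an inbred strain prone to dermatitis. The 4 groups were sham back skin, HDM back skin, sham ear and HDM ear, with 8 arrays each, 1 per numbered mouse and site. HDM mice were treated with an agent that the labels abbreviate as HDM, and the labels do not describe the sham treatment. Age and sex of the mice, the dose and the time of treatment are not given. RNA came from 8 mm punches, so each array reports a mixture of epidermis, hair follicles, dermis and whatever lies below it. In such bulk samples, fewer cells of a type and less RNA per cell cannot be told apart. Mouse numbers recur at both sites, and the labels do not say whether a number marks 1 animal.

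Prostaglandins are lipid mediators made from arachidonic acid, which phospholipases A2 release from membranes. Cyclooxygenases, of which Ptgs2 encodes the inducible form, turn it into prostaglandin H2, and terminal synthases make the active products from that. Ptges encodes the inducible microsomal prostaglandin E synthase, while Ptgds and Hpgds encode unrelated prostaglandin D synthases, a lipocalin and a glutathione-dependent enzyme of mast cells and other haematopoietic cells. Hpgd encodes 15-hydroxyprostaglandin dehydrogenase, which inactivates prostaglandins. In skin, prostaglandin E2 and prostaglandin D2 are known for their parts in vasodilation, itch, leukocyte recruitment and hair growth.

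Values are log2 expression levels after RMA. The background of an array was the median of its negative control rows, between 4.43 and 5.38, and between 54.4% and 62.3% of rows lay above it. Precision is limited by the number of arrays. The keratinocyte gene Krt5 lay between 18.58 and 19.21 on all arrays, and Acan, which encodes a cartilage proteoglycan, between 8.30 and 11.92 in ear against 3.76 to 6.02 in back skin. Arrays of mice 1 and 2 of sham back skin stood apart from the other 6 in neutrophil markers, and mouse 1 also in hair follicle markers. Their hair follicle marker means were 8.57 and 13.06 against 13.60 to 16.76, where mouse 2 lay near the lowest of the others. Their neutrophil marker means were 8.47 and 8.69 against 5.69 to 6.63. The values of the 5 genes, the list counts, and calls on other genes that these arrays changed are therefore also given without them. Without them 14% of all rows passed for HDM in back skin.

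To show the regulatory sequence next to some of the genes that were higher in HDM skin, the 250 bases before the RefSeq start are printed for Ptgs2 (chr1:150099781-150100030, + strand), Ptges (chr2:30903298-30903547, - strand) and Hpgd (chr8:56294302-56294551, + strand), all in GRCm38.p6 and written 5′ to 3′ on the strand of the gene. The window of Hpgds, which was also higher in ear, is not printed. Capitals mark matches to any of the motifs searched on both strands.
Ptgs2: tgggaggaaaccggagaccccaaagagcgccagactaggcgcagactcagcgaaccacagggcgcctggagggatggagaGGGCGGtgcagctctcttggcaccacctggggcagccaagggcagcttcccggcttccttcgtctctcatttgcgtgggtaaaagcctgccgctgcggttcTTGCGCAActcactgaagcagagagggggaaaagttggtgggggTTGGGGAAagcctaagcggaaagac
Ptges: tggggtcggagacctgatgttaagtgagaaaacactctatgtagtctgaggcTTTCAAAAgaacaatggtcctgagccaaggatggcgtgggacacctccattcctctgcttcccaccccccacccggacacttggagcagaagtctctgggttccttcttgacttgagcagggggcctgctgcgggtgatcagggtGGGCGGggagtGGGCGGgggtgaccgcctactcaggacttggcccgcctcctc
Hpgd: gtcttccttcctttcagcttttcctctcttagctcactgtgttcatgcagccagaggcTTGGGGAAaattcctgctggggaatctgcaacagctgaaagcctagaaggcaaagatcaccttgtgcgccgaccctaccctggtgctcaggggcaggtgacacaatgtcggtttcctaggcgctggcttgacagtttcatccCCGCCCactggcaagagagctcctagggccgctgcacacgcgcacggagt
The motifs were the TATA box (TATAAA), the cAMP response element (TGACGTCA) and its core (TGACGT), the E-box (CACGTG), AP-1 (TGANTCA), NF-kB, C/EBP (TTNNGNAA) and Sp1 (GGGCGG). The core lies within the full cAMP response element, and no other motif searched contains another. In the Ptgs2 window a palindromic C/EBP match, TTGCGCAA, ran from -69 to -62 and a second, TTGGGGAA, from -25 to -18, counted from the start, with an Sp1 match at -170 to -165. The Ptges window held Sp1 matches at -53 to -48 and -42 to -37 and a C/EBP match on the opposite strand at -198 to -191. The Hpgd window held a C/EBP match at -192 to -185 and an Sp1 match on the opposite strand at -50 to -45. The Hpgds window held C/EBP matches at -176 to -169 and -144 to -137 and no Sp1 match. Of 32851 promoter windows of this length, 36.9% held the C/EBP letters and 32.7% the Sp1 letters, so these matches are frequent in promoters at large. These letters are a description of the windows and not evidence of binding.

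In ear, 4 of the 5 genes were higher in HDM than in sham mice and 0 were lower, and in back skin 1 of 5 was higher and 0 lower. The genes that rose in ear were Ptgs2, Ptges, Hpgds and Hpgd, and the gene that rose in back skin was Hpgd. Of all rows tested, 16.4% were higher and 15.5% lower in ear, 31.9% in all, and 6.18% were higher and 8.56% lower in back skin, 14.7% in all (limma, Benjamini-Hochberg adjusted p under 0.05, the threshold used throughout). The median difference over the 5 genes was 1.57 on the log2 scale in ear and 1.03 in back skin, against -0.02 and 0.01 over all rows. Without sham back mice 1 and 2, Ptgs2 and Ptges also passed in back skin, which made 3 of 5.

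**Figure D1:**
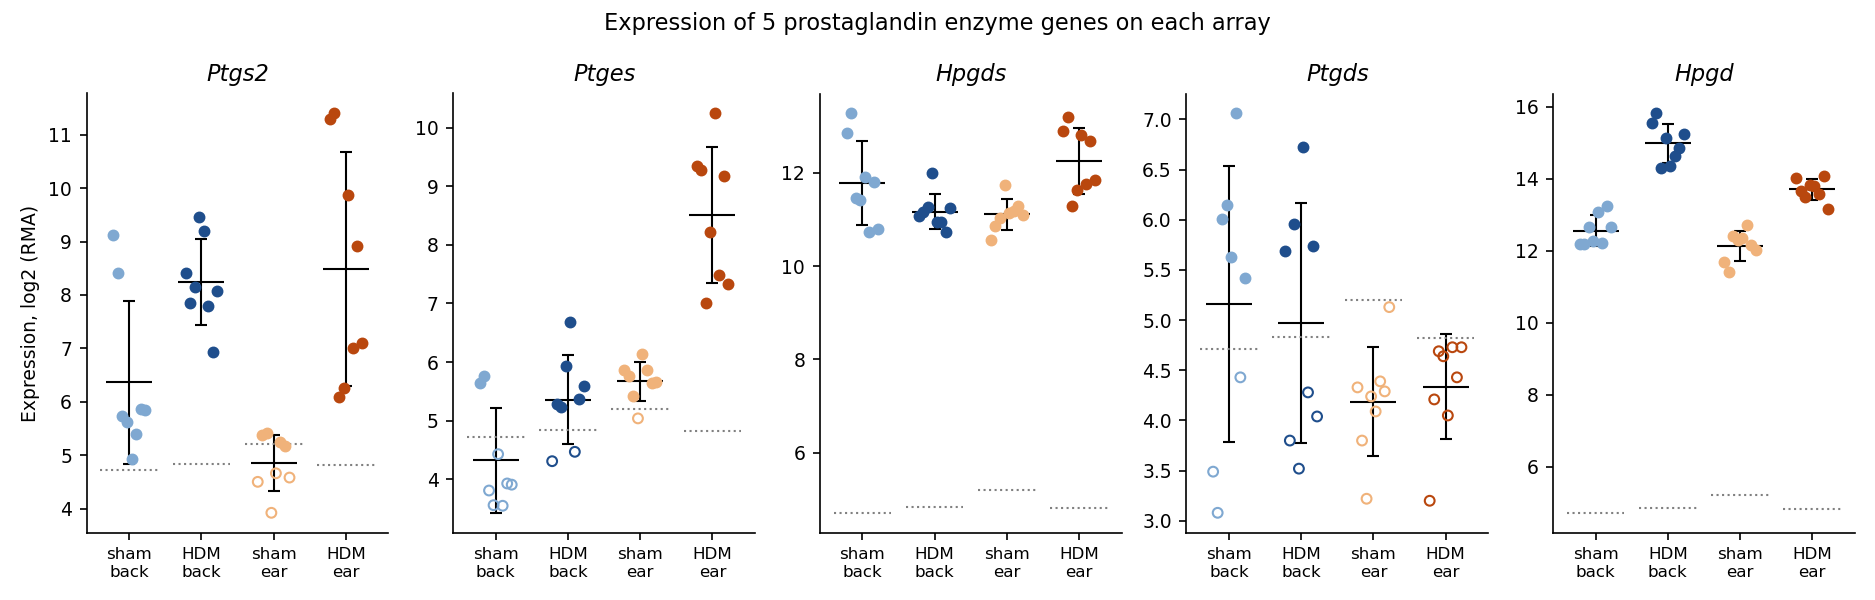
Expression of each gene on every array, as log2 RMA values on the y axis of each panel, for the 4 groups of 8 arrays on the x axis. Filled points lie above the background of their own array and open points under it, black lines are the mean ± SD and dotted lines the mean background of the group. Ptges in HDM ear lies between 7.01 and 10.24, above all other arrays, Hpgd in HDM back skin lies between 14.30 and 15.82, and all Ptgds points in ear are open. Axes differ between panels, since levels of different probe sets are not comparable.

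**Figure D2:**
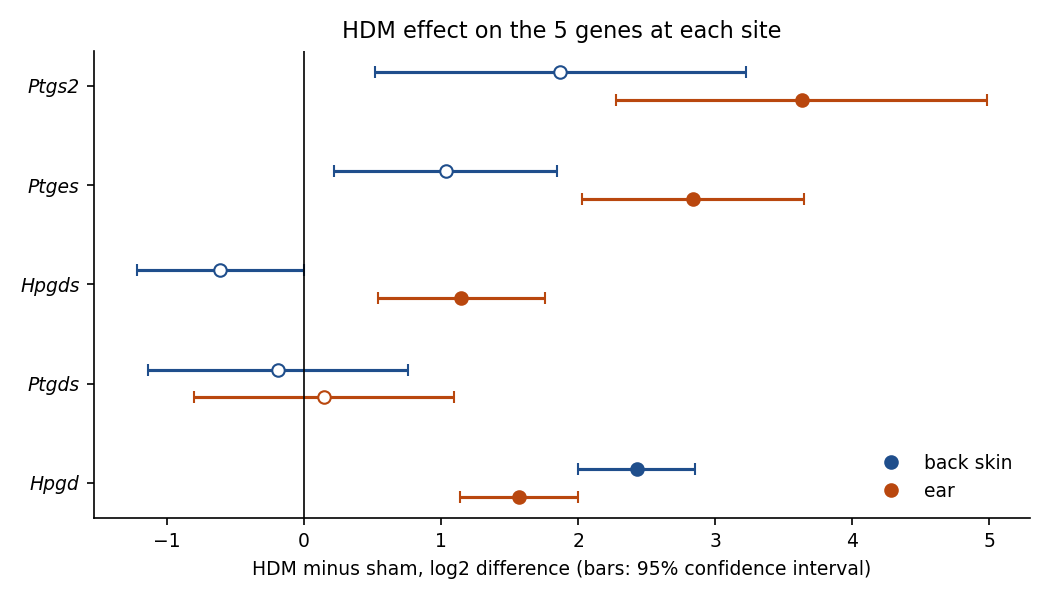
Log2 difference HDM minus sham on the x axis for each gene, in back skin (blue) and ear (orange), with 95% confidence intervals from the limma fit over 32 arrays. Filled points passed an adjusted p under 0.05. The interval for Hpgds reaches from -1.22 to -0.00 in back skin and from 0.54 to 1.76 in ear.

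Ptgs2 encodes cyclooxygenase 2, the inducible enzyme at the head of the pathway. In sham ear its values ran from 3.92 to 5.41 with a median of 4.92, and in HDM ear from 6.08 to 11.40 with a median of 8.01. The ear groups did not overlap, and 4 of 8 sham ear arrays lay above background. The difference was 3.63 ± 0.66 (SE, adjusted p = 6.71e-05, limma), a 12.4-fold higher mean, and 3.25 where values under background were set to it. Of all rows, 4.99% were higher in HDM ear with no overlap. In sham back skin Ptgs2 ran from 4.92 to 9.12 with a median of 5.79, and in HDM back skin from 6.93 to 9.47 with a median of 8.12. The 2 highest sham values, 9.12 and 8.42, belonged to mice 1 and 2 and lay within the HDM range, while the other 6 were at or below 5.86 and under every HDM array. The limma fit shares 1 spread per gene over the 4 groups, so its errors and p-values for back skin also draw on the ear arrays. The difference in back skin was 1.87 ± 0.66 (adjusted p = 0.0538, limma), with a 95% confidence interval from 0.52 to 3.22, and did not pass. It was 2.67 ± 0.63 without mice 1 and 2 (adjusted p = 0.00375, limma), and the two-sided exact permutation test over all 8 and 8 arrays gave p = 0.0123, or 0.0223 adjusted over 20 such tests. The effect of HDM in ear was larger than that in back skin by 1.76 ± 0.94, which did not pass (adjusted p = 0.254, limma), and by 0.96 without mice 1 and 2 (adjusted p = 0.554, limma). Group means rose in the order sham ear (4.86 ± 0.53, SD, n = 8), sham back skin (6.37 ± 1.53), HDM back skin (8.24 ± 0.81) and HDM ear (8.49 ± 2.18). The pair of HDM groups differed by 0.25 ± 0.66 (adjusted p = 0.83, limma; 95% interval -1.10 to 1.60), and sham ear minus sham back skin was -1.51 ± 0.66, which did not pass (adjusted p = 0.0878, limma), and -0.71 without mice 1 and 2.

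Neutrophil markers were set beside Ptgs2, which passed in ear but not in back skin over all arrays. Of 7 measured neutrophil genes, 6 were higher and 1 lower in HDM at each site, in back skin also without sham mice 1 and 2. Of all rows, 16.4% were higher in ear and 6.18% in back skin. The range of the neutrophil mean was 4.56 to 6.27 in sham ear, 9.29 to 14.21 in HDM ear, 5.69 to 8.69 in sham back skin and 10.07 to 11.60 in HDM back skin. The granule enzyme gene Mpo, the member that was lower, lay under background on all HDM arrays. The part of neutrophils in the Ptgs2 difference was not tested.

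Ptges, the prostaglandin E synthase gene that is often induced together with Ptgs2, differed most clearly in ear. It ran from 5.04 to 6.13 in sham ear (median 5.71) and from 7.01 to 10.24 in HDM ear (median 8.70), with no overlap. The difference was 2.84 ± 0.40 (adjusted p = 1.83e-06, limma), a 7.15-fold higher mean. In back skin its level was near background, with values from 3.55 to 5.77 in sham (median 3.92) and from 4.31 to 6.68 in HDM mice (median 5.33). Of the arrays in back skin, 2 of 8 sham and 6 of 8 HDM lay above background, and the 2 sham arrays were again those of mice 1 and 2, at 5.64 and 5.77. The difference in back skin was 1.03 ± 0.40 (adjusted p = 0.078, limma), which did not pass, 1.49 ± 0.38 without mice 1 and 2 (adjusted p = 0.00754, limma), and 0.57 where values under background were set to it (adjusted p = 0.286, limma).

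The effect of HDM on Ptges was larger in ear than in back skin by 1.81 ± 0.56 (adjusted p = 0.036, limma), a difference between sites that 10.1% of all rows passed, 6.77% higher and 3.37% lower. It was 1.34 ± 0.52 without sham back mice 1 and 2 (adjusted p = 0.111, limma), and it also failed to pass when any 1 of 10 arrays was left out (adjusted p up to 0.063, limma). Ptges was 3.15 ± 0.40 higher in HDM ear than in HDM back skin (adjusted p = 2.04e-07, limma), with no overlap, as 4.22% of all rows were. In sham mice the ear was 1.35 ± 0.40 higher (adjusted p = 0.0094, limma), 1.81 without mice 1 and 2, or 0.77 where values under background were set to it. Group means rose in the order sham back skin (4.33 ± 0.90, SD, n = 8), HDM back skin (5.36 ± 0.76), sham ear (5.67 ± 0.33) and HDM ear (8.51 ± 1.16), and the ranges of HDM back skin and sham ear overlapped.

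Hpgds, the haematopoietic prostaglandin D synthase gene, responded differently at the 2 sites. In ear it ran from 10.57 to 11.73 in sham (median 11.12) and from 11.28 to 13.19 in HDM mice (median 12.27), and 6 of 8 HDM arrays lay above every sham array. The difference was 1.15 ± 0.30 (adjusted p = 0.00305, limma), a 2.22-fold higher mean. In back skin it ran from 10.73 to 13.27 in sham (median 11.63) and from 10.73 to 12.00 in HDM mice (median 11.11). The highest sham values, 12.85 and 13.27, belonged to mice 1 and 2. The difference in back skin was -0.61 ± 0.30 (adjusted p = 0.183, limma), which did not pass, and -0.18 without these mice (adjusted p = 0.708, limma). The effect in ear exceeded that in back skin by 1.76 ± 0.42 (adjusted p = 0.0068, limma), and by 1.33 ± 0.35 without mice 1 and 2 (adjusted p = 0.0168, limma). In HDM mice the ear lay 1.09 ± 0.30 above back skin (adjusted p = 0.00544, limma), and in sham mice it differed by -0.67 ± 0.30 (adjusted p = 0.0949, limma), or by -0.24 without mice 1 and 2 (adjusted p = 0.562, limma). Means of sham ear (11.11 ± 0.33, SD, n = 8), HDM back skin (11.17 ± 0.38), sham back skin (11.78 ± 0.90) and HDM ear (12.26 ± 0.71) stood in that order, and neighbouring ranges overlapped.

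Marker genes of cells that can carry Hpgds were set beside it. Of 8 mast cell genes, 5 were higher and 0 lower in HDM ear, and 2 were higher and 3 lower in HDM back skin, or 2 and 1 without sham back mice 1 and 2; 3 of 8 passed for the difference between sites. The list was called in 62.5% of its genes at each site, against 31.9% of all rows in ear and 14.7% in back skin. The difference between sites passed for 37.5% of the list and for 10.1% of all rows. Cpa3, a mast cell protease gene, was 0.84 higher in HDM ear (adjusted p = 0.036, limma) and differed by -0.86 in back skin (adjusted p = 0.0577, limma), or by -0.43 without mice 1 and 2 (adjusted p = 0.334, limma). Other genes of the list did not follow Cpa3 in back skin. Without mice 1 and 2, Hdc was 3.60 higher there (adjusted p = 0.00168, limma) and Tpsab1 1.45 higher (adjusted p = 0.0125, limma). Ms4a2, the 1 lower gene, differed by -0.998 (adjusted p = 0.0236, limma). The range of the mast cell mean was 7.75 to 8.40 in sham ear, 8.67 to 10.15 in HDM ear, 7.81 to 9.49 in sham back skin and 7.91 to 8.95 in HDM back skin. Mice 1 and 2 had the highest sham back values of that list, 9.49 and 9.46, and without them the sham back mean was 8.16, below the HDM back mean of 8.47. All 10 macrophage and monocyte genes were higher in HDM ear, with means of 8.92 to 9.41 in sham and 10.54 to 13.23 in HDM, and 2 of 10 in HDM back skin, or 4 of 10 without mice 1 and 2, with 9.44 to 11.13 and 10.58 to 11.25. Of 10 dendritic and Langerhans cell genes, 7 were lower and 1 higher in HDM back skin, or 6 and 1 without mice 1 and 2, and 0 passed in ear. The 7 include Clec9a, which lay under background on all arrays of both groups in back skin, so that call has no measured level behind it; Zbtb46, which did not pass, lay under background there too. The means of that list were 7.17 to 8.94 in sham and 6.66 to 6.95 in HDM back skin, and 7.09 to 7.41 and 6.80 to 7.48 in sham and HDM ear. The part of these cells in the Hpgds differences was not tested.

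Ptgds, the lipocalin-type prostaglandin D synthase gene, did not pass the test for HDM at either site. In ear it lay under background on all 8 sham arrays (3.22 to 5.13, median 4.27) and all 8 HDM arrays (3.20 to 4.73, median 4.54), so no fold is given there. In back skin it ran from 3.08 to 7.06 in sham (median 5.53) and from 3.52 to 6.73 in HDM mice (median 4.99), with 5 and 4 of 8 arrays above background. The difference in back skin was -0.19 ± 0.46 (adjusted p = 0.846, limma), with a 95% confidence interval from -1.14 to 0.76, which leaves room for changes of either sign. Without mice 1 and 2, which had 3.49 and 3.08, it was -0.81 ± 0.42 (adjusted p = 0.213, limma). The HDM effect in ear minus that in back skin was 0.34 ± 0.66 (adjusted p = 0.807, limma), or 0.96 without these mice (adjusted p = 0.332, limma), with Ptgds under background on all ear arrays. Sham ear against sham back skin differed by -0.97 ± 0.46 (adjusted p = 0.119, limma) and passed without these mice at -1.60 ± 0.42 (adjusted p = 0.00376, limma), a difference measured against arrays under background.

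Hpgd, whose product degrades prostaglandins, rose at both sites with the tightest replicates of the 5 genes in HDM ear. In back skin it ran from 12.18 to 13.25 in sham (median 12.47) and from 14.30 to 15.82 in HDM mice (median 15). The groups did not overlap, which held for 1.83% of all rows in that direction. The difference was 2.43 ± 0.21 (adjusted p = 1.10e-09, limma), a 5.38-fold higher mean, and 2.30 without mice 1 and 2. In ear it ran from 11.40 to 12.71 in sham (median 12.23) and from 13.17 to 14.09 in HDM mice (median 13.74), again with no overlap and a difference of 1.57 ± 0.21 (adjusted p = 9.62e-07, limma), 2.97-fold. Two-sided exact permutation tests gave p = 0.000155 at each site, the smallest that 8 against 8 arrays allow. The effect in ear minus that in back skin was -0.86 ± 0.30, which did not pass (adjusted p = 0.0624, limma), and -0.73 without mice 1 and 2 (adjusted p = 0.148, limma). HDM ear lay below HDM back skin with no overlap, as 3.7% of all rows did (difference -1.28 ± 0.21, adjusted p = 1.47e-05, limma), while the sham groups differed by -0.43 ± 0.21 (adjusted p = 0.131, limma), or by -0.55 without mice 1 and 2 (adjusted p = 0.0673, limma). Means ordered sham ear (12.14 ± 0.42, SD, n = 8), sham back skin (12.56 ± 0.42), HDM ear (13.71 ± 0.30) and HDM back skin (14.99 ± 0.55), and sham back skin overlapped HDM ear only through the highest sham and lowest HDM values, 13.25 and 13.17.

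Cell types of the epidermis and its glands were set beside Hpgd. Of 6 keratinocyte genes, 2 were higher and 2 lower in HDM back skin, also without sham mice 1 and 2. In HDM ear, 3 were higher and 0 lower. The called genes were 66.7% of the list in back skin and 50% in ear, against 14.7% and 31.9% of all rows. The range of the keratinocyte mean was 17.69 to 18.24 in sham and 18.01 to 18.37 in HDM back skin, and 17.27 to 17.81 and 18.15 to 18.34 in sham and HDM ear. All 8 sebocyte genes were lower in HDM back skin, also without sham mice 1 and 2, with means of 11.78 to 13.04 in sham and 8.83 to 10.54 in HDM, and 1 of 8 was lower in HDM ear, with 12.66 to 13.67 and 11.32 to 13.22. Of all rows, 8.56% were lower in back skin and 15.5% in ear. The part of these cells in the Hpgd differences was not tested.

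The mice of HDM ear differed widely in Ptgs2, Ptges and Hpgds. Mice 1, 2, 5 and 7 had Ptgs2 values of 11.29, 11.40, 9.87 and 8.91, and mice 3, 4, 6 and 8 had 6.08, 6.25, 7.00 and 7.10. For Ptges the same mice in the same order had 9.34, 9.27, 10.24 and 9.18, then 7.01, 8.22, 7.49 and 7.34. For Hpgds they had 12.89, 13.19, 12.80 and 12.68, then 11.28, 11.64, 11.75 and 11.85. For each of these genes, every value of mice 1, 2, 5 and 7 exceeded every value of mice 3, 4, 6 and 8. The mice were grouped on these same values. How many of all rows split so was not counted, so the split is not shown to be particular to these genes. Neutrophil marker means of the 8 mice split in the same way, at 13.69, 14.21, 13.87 and 12.96 against 9.29, 11.09, 10.57 and 9.30. Hpgd did not split so, with 14.02, 13.67, 13.80 and 14.09 in mice 1, 2, 5 and 7 and 13.51, 13.82, 13.57 and 13.17 in the others. The SD of Ptgs2 in HDM ear was 2.18 and that of Hpgd 0.30, where the median SD of all rows in that group was 0.36.

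**Figure D3:**
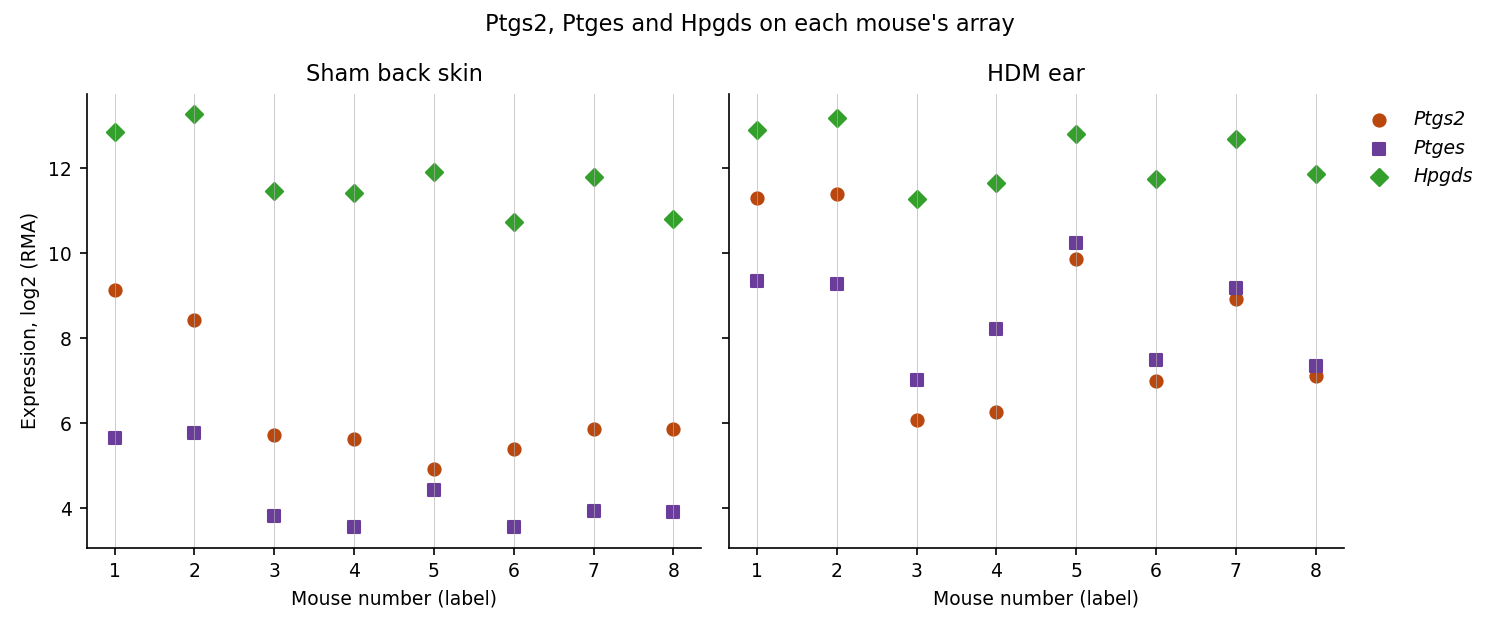
Log2 expression of Ptgs2 (circles), Ptges (squares) and Hpgds (diamonds) on the y axis for each mouse number on the x axis, in sham back skin (left) and HDM ear (right), 1 array per point. Mice 1 and 2 of sham back skin are the highest for all 3 genes, with Ptgs2 at 9.12 and 8.42, and mice 1, 2, 5 and 7 of HDM ear are the highest there. Levels of different genes are not comparable with each other.

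Genes that followed each member across mice were ranked by Pearson correlation of deviations from the group mean over 32 arrays, among 11848 named rows above mean background. The 3 highest were chosen for their value, so they are a description and carry no test, and the arrays of 1 mouse share all genes measured on them. For Ptgs2 they were Lilr4b (r = 0.90), an inhibitory leukocyte receptor gene, the neutrophil chemokine gene Cxcl1 (0.88) and Il1b (0.88), which encodes interleukin 1 beta. For Ptges they were Csta3 (0.88), of the cystatin family, Tnfrsf9 (0.87), a costimulatory receptor gene, and Il33 (0.87), an epithelial alarmin gene. For Hpgds they were Cxcl1 (0.88), the interferon-induced gene Ifitm3 (0.86) and the guanine deaminase gene Gda (0.86). Without sham back mice 1 and 2 these 9 correlations lay between 0.76 and 0.88. For Hpgd the highest were lower, with the matrix genes Mmp11 (0.75), Col16a1 (0.68) and Postn (0.66).

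Ptgds was followed by melanocyte genes. The highest were Trpm1 (r = 0.89 over 32 arrays), a cation channel gene of melanocytes, and the pigment enzyme genes Tyrp1 (0.89) and Dct (0.87), and without sham back mice 1 and 2 they were 0.83, 0.82 and 0.79 over 30 arrays. In sham back skin both Ptgds and Tyrp1 were lowest in mouse 2, at 3.08 and 6.25, and highest in mouse 6, at 7.06 and 12.80. In HDM back skin both were lowest in mouse 4, at 3.52 and 8.51, and highest in mouse 5, at 6.73 and 12.35. Ear arrays reached a Tyrp1 value of 12.53 with Ptgds under background. Of 6 melanocyte genes, 0 passed with HDM in back skin or in ear, and their mean ranged from 4.68 to 9.24 in sham back skin, 5.86 to 8.73 in HDM back skin, 6.48 to 8.31 in sham ear and 5.97 to 7.55 in HDM ear. Mouse 7 of sham back skin was also low, with Tyrp1 at 8.30 and Ptgds at 4.43, under background. The hair follicle mean in sham back skin was lowest in mouse 1 and next lowest in mouse 2, as given above. Within the 5 genes, Ptgs2, Ptges and Hpgds had pairwise correlations of deviations of 0.70 to 0.78, Ptgds had -0.40 to -0.65 with these 3, and Hpgd had -0.03, -0.02 and 0.14 with them.

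**Figure D4:**
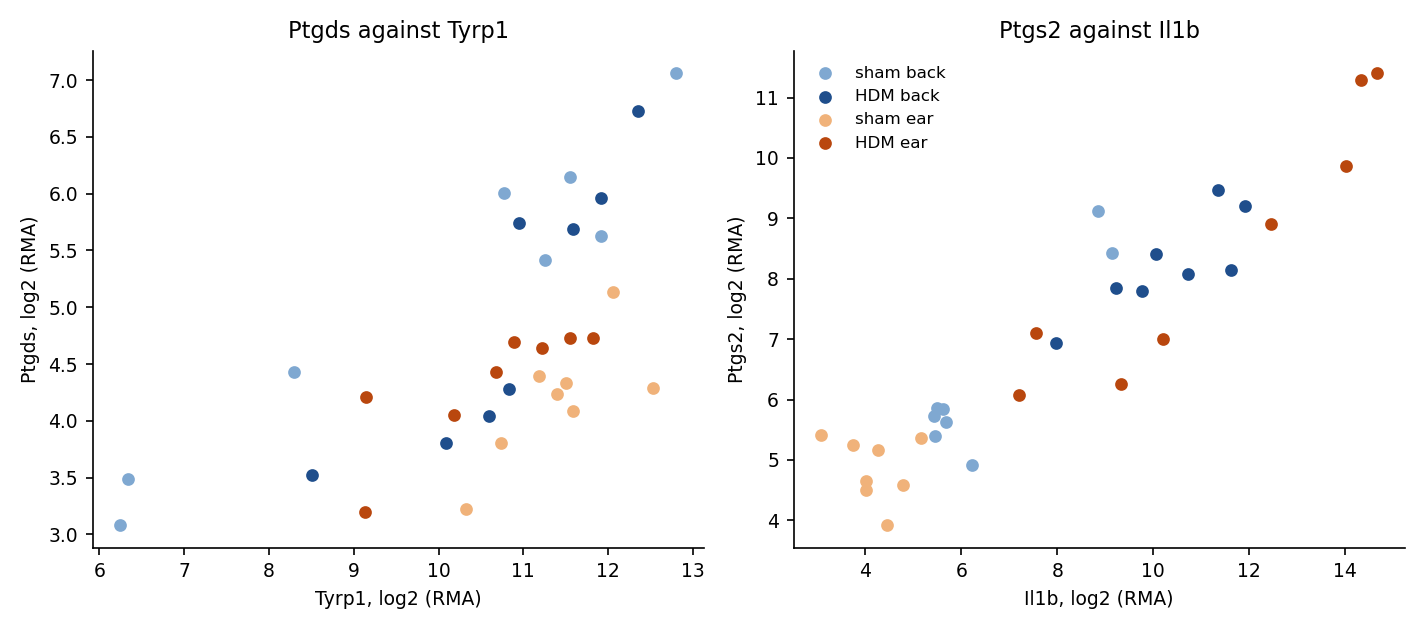
Left, Ptgds (y axis) against Tyrp1 (x axis), and right, Ptgs2 (y axis) against Il1b (x axis), in log2 RMA units, with 1 point per array coloured by group. In back skin Ptgds spans 3.08 to 7.06 along Tyrp1, while ear points stay at or below 5.13, and Ptgs2 reaches 11.40 on the HDM ear arrays with the highest Il1b.

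Upstream of the cyclooxygenases, 16 of 17 listed phospholipase A2 genes were measured. Of these, 3 were higher and 2 lower in HDM back skin, or 3 and 1 without sham mice 1 and 2, and 4 were higher and 2 lower in HDM ear, with medians of 0.01 and 0.04. These are 31.2% of the list in back skin and 37.5% in ear, against 14.7% and 31.9% of all rows, so the share in ear was near that of all rows. Pla2g4e, a cytosolic phospholipase A2 family gene, had the largest difference, from 8.73 ± 0.91 to 12.32 ± 0.32 (SD, n = 8) in back skin, or 3.60 ± 0.41 (SE, adjusted p = 2.37e-07, limma; 4.06 without mice 1 and 2), and from 7.80 ± 0.64 to 12.16 ± 1.32 in ear, or 4.36 ± 0.41 (adjusted p = 2.76e-09, limma). Pla2g4f of the same family rose by 1.38 ± 0.24 in back skin and by 1.29 ± 0.24 in ear. Pla2g4d also passed at both sites, but lay under background on all sham arrays and above it on 3 of 8 HDM arrays in back skin and 2 of 8 in ear, and Pla2g2a passed in ear while under background on all ear arrays, so no fold is given for either. The secreted enzyme gene Pla2g5 fell by 2.01 ± 0.35 in ear, from 8.09 to 6.08, and was at least 1.20-fold lower in HDM back skin, where it was under background on all arrays. That call in back skin ended where values under background were set to it, at -0.37 for Pla2g5 (adjusted p = 0.357, limma). Pla2g2f, a secreted phospholipase A2 of the epidermis, fell by 0.97 ± 0.20 in ear, and Pla2g2d fell by 0.79 ± 0.26 in back skin, or by 0.69 without mice 1 and 2 (adjusted p = 0.105, limma), which did not pass. The call on Pla2g2d also ended with array medians made equal, at -0.665 (adjusted p = 0.0771, limma). It ended too when any 1 of 6 arrays was left out (adjusted p up to 0.0867, limma). Pla2g4a, the widely expressed cytosolic enzyme, differed by -0.10 ± 0.15 and -0.32 ± 0.15 (adjusted p = 0.724 and 0.112, limma).

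Beside Ptges, Ptgds and Hpgds, 6 of 7 other terminal synthase genes were measured, and 0 passed in back skin, or 1 higher without sham mice 1 and 2, while 1 was higher and 1 lower in ear (33.3% of the list against 31.9% of all rows), with medians of -0.16 and 0.35. Ptges3, which encodes the cochaperone p23, also described as a cytosolic prostaglandin E synthase, rose by 1.11 ± 0.22 in ear (adjusted p = 0.000222, limma). In back skin Ptges3 differed by 0.56 ± 0.22 (adjusted p = 0.0905, limma), and it passed without mice 1 and 2 at 0.71 (adjusted p = 0.0396, limma) and with array medians made equal at 0.69 (adjusted p = 0.041, limma). Ptgis, the prostacyclin synthase gene, fell by 1.58 ± 0.30 in ear, from 9.96 ± 0.62 to 8.38 ± 0.96 (adjusted p = 8.78e-05, limma), and its effect in ear lay below that in back skin (difference -1.34 ± 0.42, adjusted p = 0.036, limma). That difference of Ptgis did not pass without mouse 7 of HDM back skin, mouse 1, 2, 5 or 7 of HDM ear, mouse 5 or 8 of sham back skin, or mouse 3, 4, 5 or 6 of sham ear (adjusted p up to 0.0636, limma). In back skin Ptgis was 5.53 ± 0.32 in sham and 5.29 ± 0.36 in HDM mice, above background on 8 and 7 of 8 arrays. Tbxas1, the thromboxane synthase gene, was under background on all 8 sham ear arrays and above it on 6 of 8 HDM ear arrays, a difference of 0.78 ± 0.31 that did not pass (adjusted p = 0.0552, limma). With the sham ear background standing in, the difference was at least 0.42, or 1.33-fold. Over 9 alternatives it lay between 0.58 and 0.78, and in 7 of them it did not pass (adjusted p up to 0.0913, limma). Tbxas1 did pass with dim rows left out (adjusted p = 0.0385, limma), with mouse number as a fixed block (adjusted p = 0.0417, limma), and without mouse 3, 6 or 8 of HDM ear or mouse 8 of sham back skin. That block joins sham and HDM arrays of 1 number, which the labels do not describe as related.

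Of 6 measured genes of prostaglandin uptake, export and breakdown, Hpgd included, 2 were higher and 1 lower in HDM back skin, or 2 and 0 without sham mice 1 and 2, and 2 were higher and 2 lower in HDM ear, with medians of -0.28 and -0.41. The difference between sites passed for 2 of the 6, Slco2a1 and Ptgr1, and for 10.1% of all rows. The genes called for HDM are 50% of the list in back skin and 66.7% in ear, against 14.7% and 31.9% of all rows. Hpgd, already counted above, is among them at both sites. Slco2a1, the transporter that takes prostaglandins into cells, rose by 1.22 ± 0.25 in ear, from 7.27 ± 0.60 to 8.49 ± 0.47 (adjusted p = 0.000264, limma), and differed by -0.09 ± 0.25 in back skin, and the effects differed by 1.31 ± 0.35 (adjusted p = 0.0147, limma). Ptgr1, a prostaglandin reductase gene that acts after Hpgd, rose by 0.97 ± 0.18 in back skin (adjusted p = 0.000216, limma), or by 1.00 without mice 1 and 2, differed by -0.40 ± 0.18 in ear, and its effect in ear lay below that in back skin (difference -1.37 ± 0.25, adjusted p = 0.000619, limma). Abcc4, an efflux transporter gene, fell by 0.82 ± 0.25 in back skin, or by 0.51 without mice 1 and 2 (adjusted p = 0.149, limma), which did not pass. The call on Abcc4 also ended with only the back skin groups in the fit (adjusted p = 0.0574, limma). It ended too when any 1 of 3 arrays was left out, mouse 5 of HDM back skin among them (adjusted p up to 0.0596, limma). The reductase genes Ptgr2 and Zadh2 fell in ear by 0.80 ± 0.22 and 0.57 ± 0.20. The call on Zadh2 ended with only the ear groups in the fit (adjusted p = 0.0682, limma) and without mouse 1, 2, 5 or 7 of HDM ear or mouse 2 of sham ear (adjusted p up to 0.0858, limma).

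Of 9 prostanoid receptor genes, 1 was higher and 2 lower in HDM back skin, or 1 and 3 without sham mice 1 and 2, and 1 was higher and 1 lower in HDM ear, with medians of -0.26 and 0.04. These are 33.3% of the list in back skin and 22.2% in ear, against 14.7% and 31.9% of all rows, so the share in ear was below that of all rows. Ptgfr, the receptor gene for prostaglandin F2 alpha, fell by 1.67 ± 0.29 in back skin, from 9.54 ± 0.77 to 7.88 ± 0.48, and by 1.55 ± 0.29 in ear, from 10.33 ± 0.41 to 8.78 ± 0.69. Ptger3, which encodes the prostaglandin E2 receptor EP3, fell by 1.66 ± 0.34 in back skin, from 7.83 ± 0.87 to 6.17 ± 0.75 (adjusted p = 0.000767, limma), and differed by -0.16 ± 0.34 in ear. The effects of HDM on Ptger3 differed by 1.5 ± 0.48 between sites (adjusted p = 0.0397, limma), or by 1.22 without mice 1 and 2 (adjusted p = 0.109, limma), which did not pass, as it also did not when any 1 of 16 arrays was left out (adjusted p up to 0.0688, limma). The prostacyclin receptor gene Ptgir was above background on 1 of 8 sham and 6 of 8 HDM ear arrays, with a difference of 0.90 ± 0.28 (adjusted p = 0.0129, limma) that was 0.10 where values under background were set to it (adjusted p = 0.637, limma). Ptgdr2, which encodes a prostaglandin D2 receptor of type 2 lymphocytes, passed in back skin with 0 of 8 sham and 2 of 8 HDM arrays above background, so no fold is given, and Ptgdr, the other prostaglandin D2 receptor gene, lay under background on every array. Ptger4, the EP4 receptor gene, differed by -0.53 ± 0.22 and 0.15 ± 0.22 (adjusted p = 0.103 and 0.674, limma), and passed in back skin without sham mice 1 and 2, at -0.74 (adjusted p = 0.0239, limma).

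**Figure D5:**
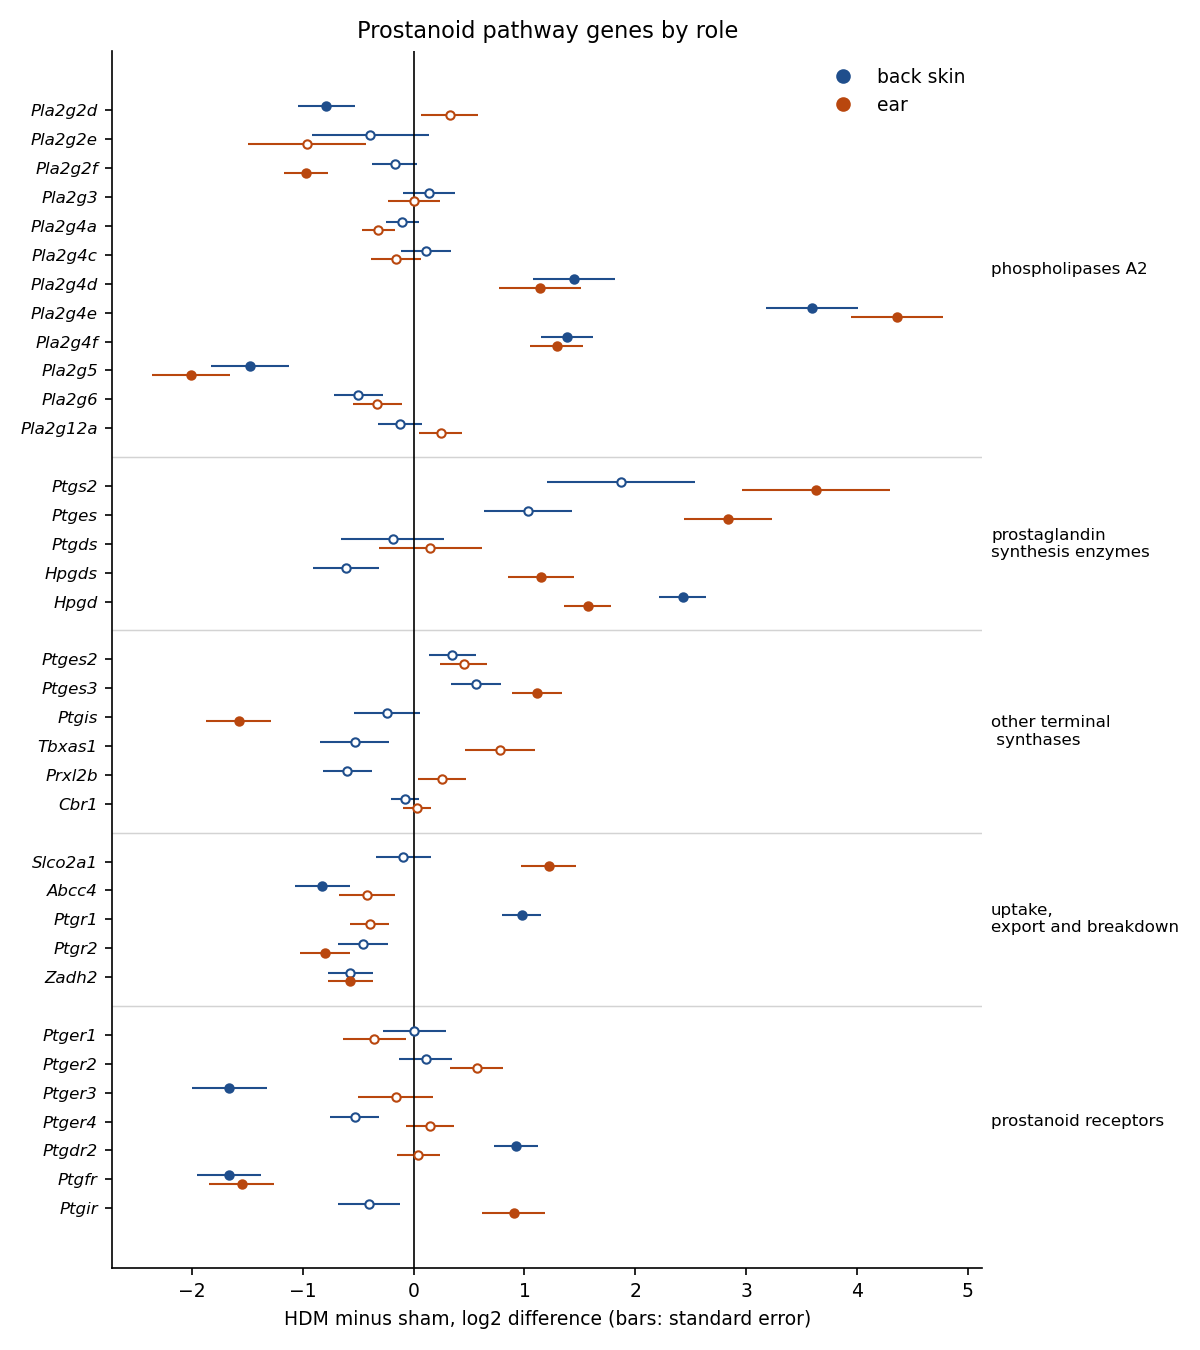
Log2 difference HDM minus sham (x axis) with its standard error for each measured pathway gene that was above background on at least 1 array, grouped by role, in back skin (blue) and ear (orange). Filled points passed an adjusted p under 0.05. Pla2g4e stands at 3.60 and 4.36, and Ptgfr at -1.67 and -1.55.

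Between the sites, 1 of the 5 genes passed in sham mice, Ptges being higher in ear, and 3 passed in HDM mice, with Ptges and Hpgds higher and Hpgd lower in ear, where 29.7% of all rows passed in sham mice (15.6% higher and 14.1% lower in ear) and 28% in HDM mice (16.8% higher and 11.2% lower). Comparisons of the sites and of the agent share groups, so these counts are not independent of those above. Among the other pathway genes, Ptgis was 4.44 ± 0.30 higher in sham ear than in sham back skin (adjusted p = 1.87e-13, limma) and 3.10 ± 0.30 higher in HDM ear than in HDM back skin. Pla2g2d, a secreted phospholipase A2, differed by -3.64 ± 0.26 between sham ear and sham back skin (adjusted p = 7.48e-13, limma).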

How the data were processed

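The authors deposited log2 expression values that they made by RMA with Transcriptome Analysis Console, as the submitters' processing notes give it; versions, build and annotation were not given in the sources used here. The log2 values reach 19.93, and a later rescaling could not be checked. A rescaling common to all arrays would alter folds but no direction, while one that differs between arrays could alter both. Of 28846 rows, 6640 array controls were left out, and 22206 were tested. Gene names came from the platform annotation.

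Group means (4 groups, 32 arrays) were fitted with limma (version 3.58.1, under R 4.3.3; lmFit, eBayes, 32.1 total degrees of freedom, no covariate or block, two-sided), with Benjamini-Hochberg adjustment over all rows. The fit was tested on simulated data with independent normal values and the same spread per row in all 4 groups. That test cannot cover groups of unequal spread or arrays that stand apart, both of which occur here. Single genes were also compared by exact permutation over arrays. Where a group lay under background on all arrays, the fold is printed as a lower bound, the mean background of that group (the higher of background and value per array) standing in. Since nothing says that arrays with 1 number come from separate or the same animals, p-values measure the spread between these arrays.

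Members and lists were chosen with earlier results of these data known. Named were the 5 members, up to 4 called genes with the largest difference per pathway list, and the 3 genes most like each member. Named beyond that, after their values were seen, were Pla2g2a, Pla2g2d, Pla2g2f, Pla2g4a, Pla2g4c, Tbxas1, Ptgr2, Zadh2, Ptgdr, Ptger2 and Ptger4, and the mast cell genes Hdc, Tpsab1 and Ms4a2. Marker lists of the cell types named were set beside results. Krt5, Acan, Cpa3, Mpo, Clec9a and Zbtb46 were also named as single genes of marker lists. Alternatives covered scaling, filtering, background, samples, variance, array weights, blocks, single arrays and the test; the marker and pathway list counts without sham back mice 1 and 2 were added after seeing the data. Promoter sequences are from RefSeq, GRCm38.p6.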

Additional observations from a re-analysis of the deposited data

Results flagged for a closer look

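The effect of HDM differed between sites for Ptges, where ear exceeded back skin by 1.81 ± 0.56 on the log2 scale (adjusted p = 0.036, limma), and for Hpgds, by 1.76 ± 0.42 (adjusted p = 0.0068, limma). For Hpgds 8 of 8 HDM ear arrays lay above the sham ear mean and 7 of 8 HDM back arrays below the sham back mean. Of 20 groups looked at, 2 held an array far from the others of its group, where chance gives about 1 in 20. In HDM back skin the highest Hpgds value, 12.00 in mouse 4, was followed by 11.27. In HDM ear the lowest Ptgds value, 3.20 in mouse 1, was followed by 4.05, and all of these lay under background.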

How the results depend on the processing

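In ear, Ptgs2, Ptges, Hpgds and Hpgd passed under all 10 alternatives and with any 1 of 32 arrays left out, as did Hpgd in back skin, and the difference between sites of Hpgds passed under all 8 alternatives run for it. In back skin, Ptgs2 passed with array medians made equal (2.00), array weights (1.98), without mice 1 and 2 of sham back skin (2.67), and, at 1.87, with dim rows left out, only the groups compared or the exact permutation test. Ptges there passed with equal medians (1.16), array weights (1.07), the exact permutation test (1.03) and without these mice (1.49). The values lay between 1.66 and 2.26 for Ptgs2 and between 0.84 and 1.24 for Ptges with 1 array left out. Ptgs2 then passed without mouse 7 of HDM back skin, mice 1, 2, 3 or 4 of HDM ear, or mouse 1 or 2 of sham back skin, and Ptges without mouse 1 of HDM back skin or mouse 1 or 2 of sham back skin.

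The difference between sites of Ptges did not pass with equal medians (1.68, adjusted p = 0.052, limma) or without mice 1 and 2 (1.34), and ranged from 1.56 to 2.02 with 1 array left out. It then failed without mice 1 or 6 of HDM back skin, 1, 2, 5 or 7 of HDM ear, 1 or 2 of sham back skin, or 3 or 4 of sham ear. That of Hpgd passed with equal medians (-0.98), dim rows left out (-0.86) and values raised to background (-0.86), and ranged from -0.96 to -0.74, passing without mouse 3 or 5 of HDM back skin, 5 or 7 of sham back skin or 2 of sham ear. For sham ear against sham back skin, Ptgs2 passed at -1.51 with only the groups compared and with the exact permutation test, and Ptgds at -1.60 without mice 1 and 2. With 1 array left out Ptgds ranged from -1.27 to -0.70, passing without mouse 1 or 2, and Hpgds from -0.81 to -0.45, passing without mouse 6 or 8 of sham back skin.

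In back skin 1372 rows were higher with HDM and 1901 lower (41.9% higher), and 2433 and 1392 (63.6%) with equal medians, which moved the median of all rows from 0.01 to 0.13. For the difference between sites the counts were 1503 and 748 (66.8%), and 1105 and 1310 (45.8%) with equal medians. For sham ear against sham back skin they were 3469 and 3124 (52.6%), and 5063 and 2462 (67.3%). Raising values to background gave 12221 lower rows in ear, 2314 higher and 9789 lower rows for the difference between sites and 12119 higher rows for sham ear against sham back skin, since sham ear arrays have the highest background and dim rows take its value. In that setting Pla2g4d in ear went to -0.07, Ptger2 in ear to -0.34, and Pla2g4c in sham ear against sham back skin to 0.38, all mostly under background.

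Same-numbered arrays of the sites showed little likeness, which cannot decide whether a number marks 1 animal, since the tissues differ. Their deviations correlated between -0.113 and 0.0401 in sham and -0.0837 and 0.14 in HDM mice, and 0 and 1 of 8 were best with their own number. With the number as a fixed replicate block, Ptgs2 (1.87, adjusted p = 0.0357, limma) and Ptges (1.03, adjusted p = 0.0413, limma) passed in back skin. That block gives sham and HDM arrays of 1 number a shared term, though the labels do not describe them as related. These passes therefore add no support. With the animal as a random block no call on the 5 genes changed. Taking the mean of several rows per symbol could change nothing, as each member has 1 row.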
